A study of Mus musculus with 12 samples.

Results

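The genes described here are 36 genes of glycolysis, glucose uptake, lactate handling and the hypoxia response, taken by name from a list of these pathways. The genes were chosen with earlier results of these data known. They were read in cultures of mouse embryonic fibroblasts, connective tissue cells grown from E13.5 embryos of wild type male C57BL/6 mice, so neither an allele nor a transgene differed between the groups. Cells had been kept in DMEM with 10% serum under 3% oxygen and 5% carbon dioxide, and that low oxygen was shared by every group. Messenger RNA was sequenced after 96 h or 240 h in 10 µM WM-2474, which the labels describe as an inactive control compound, or in the vehicle DMSO, with 3 libraries in each of the 4 groups. The labels number the replicates without saying whether they were separate cultures or embryos, so p-values measure only the spread between these libraries. All 36 were among the 26305 identified genes of the table, and all 36 were among the 13499 genes with enough counts to be tested.

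Glycolysis splits glucose into pyruvate. Transporters of the GLUT family bring glucose in, a chain of enzymes carries it to pyruvate, and lactate dehydrogenase with the monocarboxylate carriers turns pyruvate into lactate and moves lactate across the membrane. The transcription factor HIF, a pair of an oxygen-labile alpha subunit and a stable beta subunit, raises many of these genes when oxygen is low, and prolyl hydroxylases mark the alpha subunit for destruction when oxygen is present.

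HIF is known to read the core word ACGTG and its variant GCGTG, and both were searched in RefSeq promoters (build GRCm38.p6, 250 bases before to 50 after a gene's start), on both strands. Of the 36 genes, 33 had at least 1 promoter in that table and 47 promoters were found, while Slc2a3, Ndrg1 and Epas1 had none there. ACGTG was present in 23 of the 33 genes (69.7%), against 29.2% of the 10391 tested genes with a promoter in the table and 21.8% of all genes with one. For GCGTG the shares were 66.7% and 55.9%, and for either word 90.9% and 67.5%. The E-box word CACGTG, which contains ACGTG on both strands and so is counted in it as well, was in 18.2% against 11.7%. Median GC content was 62.3% in the promoters of these genes and 61.0% in those of tested genes, and the genes had more than 1 listed promoter in several cases, so per promoter the ACGTG shares were 55.3% and 25.2%. A match describes letters and is no evidence of a bound factor.

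The promoters printed here are examples: Aldoc, Slc2a6 and Bnip3, which fell over time, and Ankrd37, whose values were higher at 240 h without passing the test. Ldhb, which also fell by at least 1.5-fold, is not printed, and its promoter held 0 ACGTG and 1 GCGTG words. Each is printed 5′ to 3′ on the gene's strand, and capitals mark either core word as it reads on that strand or on the opposite one. Aldoc lies at chr11:78322823-78323122 on the plus strand, Slc2a6 at chr2:27027949-27028248, Bnip3 at chr7:138909457-138909756 and Ankrd37 at chr8:45999801-46000100, the last 3 on the minus strand.
Aldoc: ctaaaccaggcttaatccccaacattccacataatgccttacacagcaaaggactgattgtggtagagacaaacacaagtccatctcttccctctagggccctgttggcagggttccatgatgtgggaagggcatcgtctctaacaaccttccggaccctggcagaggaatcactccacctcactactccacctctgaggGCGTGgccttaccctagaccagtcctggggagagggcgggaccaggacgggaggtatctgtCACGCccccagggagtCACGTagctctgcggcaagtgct
Slc2a6: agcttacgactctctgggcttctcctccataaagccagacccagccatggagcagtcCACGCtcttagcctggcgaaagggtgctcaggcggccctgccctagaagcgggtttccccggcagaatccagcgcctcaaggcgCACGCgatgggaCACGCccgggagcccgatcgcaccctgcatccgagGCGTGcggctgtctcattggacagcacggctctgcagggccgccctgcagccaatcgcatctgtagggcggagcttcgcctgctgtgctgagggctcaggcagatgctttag
Bnip3: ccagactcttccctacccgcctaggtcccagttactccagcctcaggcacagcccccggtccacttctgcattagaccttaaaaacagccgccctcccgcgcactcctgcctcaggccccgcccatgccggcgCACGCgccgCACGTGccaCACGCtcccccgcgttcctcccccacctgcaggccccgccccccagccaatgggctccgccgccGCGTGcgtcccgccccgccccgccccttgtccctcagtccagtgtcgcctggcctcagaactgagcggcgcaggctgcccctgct
Ankrd37: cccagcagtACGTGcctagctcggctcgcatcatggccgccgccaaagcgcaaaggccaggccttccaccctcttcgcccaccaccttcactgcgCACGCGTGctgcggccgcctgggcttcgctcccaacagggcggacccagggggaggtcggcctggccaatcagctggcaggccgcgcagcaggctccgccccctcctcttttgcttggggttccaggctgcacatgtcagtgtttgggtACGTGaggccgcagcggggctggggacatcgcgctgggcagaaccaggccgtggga
Aldoc held 1 ACGTG and 2 GCGTG words in the promoter printed (a second one in the table, at chr11:78323948-78324247, held 0 and 1), Bnip3 held 2 and 3, Ankrd37 held 2 and 2, and Slc2a6 held none of the first and 4 of the second. ACGTG was in 13 of the 21 genes with a promoter that fell with DMSO and in 10 of the 12 with a promoter that did not pass. The 2 genes that rose have no promoter in the table, so the words could not be compared between directions.

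Library totals ran from 7313007 to 26019167 counts, and the lowest count of any of the 36 in any library was 33, for Car9. Levels are given as CPM, counts scaled to the size of the library with TMM factors, changes as log2 fold changes with their standard error (±), and a gene is said to rise or fall where edgeR's quasi-likelihood test gave a Benjamini-Hochberg adjusted p under 0.05 over all 13499 genes. All 12 of 12 fibroblast markers were present, at a summed 33780 to 40140 CPM at 96 h and 53320 to 58400 CPM at 240 h. Summed muscle markers went from 138 to 163 CPM at 96 h to 250 to 331 CPM at 240 h, summed neural markers from 91.8 to 107 CPM to 117 to 134 CPM, and summed epithelial markers from 24.4 to 31.3 CPM to 14.6 to 17.5 CPM. Summed macrophage markers went from 10.6 to 13.1 CPM to 6.59 to 10.2 CPM, endothelial markers from 5.71 to 8.87 CPM to 2.66 to 5.38 CPM, and adipocyte markers from 52.7 to 64.1 CPM to 40.9 to 51.8 CPM, again with no overlap between times. Of these lists 1 muscle, 1 neural, 1 epithelial, 1 endothelial and 1 adipocyte marker were at 0 in all 12 libraries, as were 7 of 9 red cell markers. The part of these shifts in the results below was not tested, and in bulk RNA fewer cells of a type and less RNA per cell cannot be told apart. Of 21 B lineage markers 1 was at 0 throughout, and their sum was highest in replicates 1 and 2 of DMSO at 240 h, at up to 27.3 CPM against at most 5.78 CPM in the other 3 groups.

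Per length, 5 enzymes of the middle and end of the pathway stood highest, but not every enzyme there. Pgam1, Pgk1 and Gapdh lay below the early enzymes Gpi1 (549 TPM) and Pfkl (298 TPM) with DMSO at 96 h. In DMSO at 96 h Pkm, pyruvate kinase, reached 3072 ± 79.0 TPM, counts scaled for gene length and library size (mean ± SD, n = 3), followed by Ldha, the muscle-type lactate dehydrogenase, at 2804 ± 41.6 TPM. Aldoa, the main aldolase, followed at 1947 ± 95.1 TPM, triose phosphate isomerase Tpi1 at 1378 ± 50.9 TPM and enolase Eno1 at 1238 ± 60.4 TPM. These 5 did not overlap in any library of the group, whereas neighbours lower in the order could overlap, such as Slc2a1 (275 ± 14.1 TPM) and Pgam1 (255 ± 9.50 TPM), or Pgk1 (223 TPM) and Bnip3 (220 TPM). At the bottom were the HIF subunit Epas1 at 7.97 ± 0.524 TPM and the neuronal-type glucose transporter Slc2a3 at 5.73 ± 0.792 TPM. Summed over the 36 genes the level was 14360 ± 300.2 TPM with DMSO at 96 h and 11940 ± 170.0 TPM at 240 h, and 14230 ± 477 TPM and 12220 ± 73.2 TPM with WM-2474. TPM carries no TMM factor, and in CPM, which does, the fall was smaller. The CPM sums were 11750, 12330 and 12160 with DMSO at 96 h and 10610, 10820 and 10530 at 240 h. With WM-2474 they were 11470, 12390 and 11940, then 10900, 11150 and 11040.

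**Figure D1:**
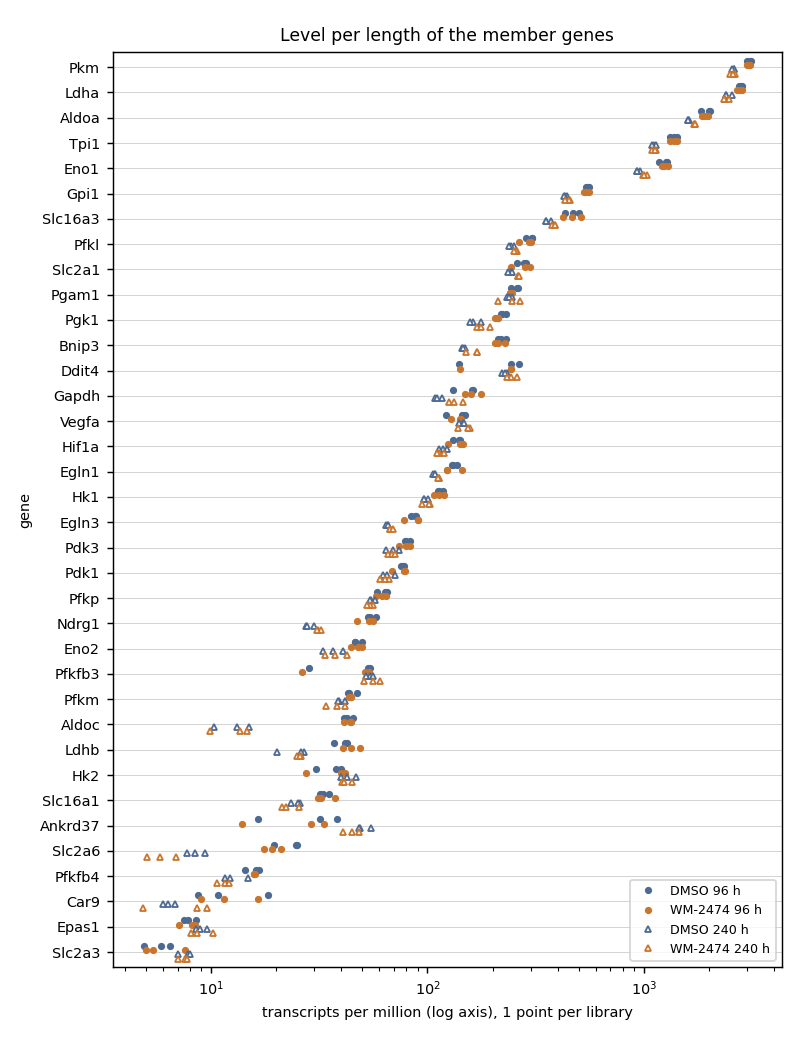
Level of each of the 36 genes in TPM on a log axis, 1 point per library, filled at 96 h and open at 240 h, blue for DMSO and orange for WM-2474. Pkm and Ldha lead, near 3072 and 2804 TPM in DMSO at 96 h, and Slc2a3 is lowest at 5.73 TPM.

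Some of these levels are uncertain because the transcripts resemble those of other genes and the counting rule for reads that match several places is not given in the sources used here. Of the 31-base words in Pgk1 transcripts 68.3% also occur in other genes, in Gapdh 62.57% (191 other genes share 50 or more words), in Eno1 53.47%, in Pgam1 42.12% and in Pkm 34.77%. Gapdh, an enzyme usually among the most abundant, stood at only 151 ± 17.3 TPM. Eno1 shares 52.32% of its words with Eno1b, which is counted separately at 262 to 335 CPM. Ldhb (33.02%), Gpi1 (31.44%), Bnip3 (25.18%), Ldha (22.25%), Aldoa (16.93%), Tpi1 (16.56%) and Pfkm (9.35%) share fewer, and the other 24 share at most 2.22%.

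From 96 h to 240 h with DMSO, 22 of the 36 genes fell, 2 rose and 12 did not pass the test. Over all genes tested 17.3% fell and 17.5% rose (34.8% in either direction), and the median log2 change was -0.21 for the 36 against -0.0064 for all. With WM-2474, 17 fell, 3 rose and 16 did not pass, beside 14.8% and 15.9% of all genes (30.7% in either direction) and medians of -0.13 and -0.0040 for the 36 and for all. Fold changes were above 0 for 7 of the 36 with DMSO (48.9% of all genes) and for 9 with WM-2474 (49.3%). Scaling by library totals alone moved the median of all genes to -0.13 and -0.14, and then 28 of the 36 fell and 1 rose with DMSO and 26 fell and 0 rose with WM-2474. Of all 13499 genes, 4379 then fell and 1190 rose with DMSO, and 4384 fell and 1098 rose with WM-2474. Leaving out replicates 1 and 2 of DMSO at 240 h leaves 1 library in that group. The log2 changes with DMSO were then -1.61 for Aldoc, -1.36 for Slc2a6, 0.55 for Slc2a3 and 0.35 for Epas1. Genes that fell in both numbered 16, and Slc2a3 and Epas1 rose in both. Most shifts were small: 4 genes, Aldoc, Slc2a6, Ndrg1 and Ldhb, fell by at least 1.5-fold, and these were the same 4 with each treatment. The shares of all genes that fell in both treatments, or by at least 1.5-fold, were not counted. All 3 libraries at 240 h lay below all 3 at 96 h for 24 genes with DMSO (22.8% of all genes) and for 16 with WM-2474 (21.2%). They lay above for 5 (22.9%) and 7 (21.1%).

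**Figure D2:**
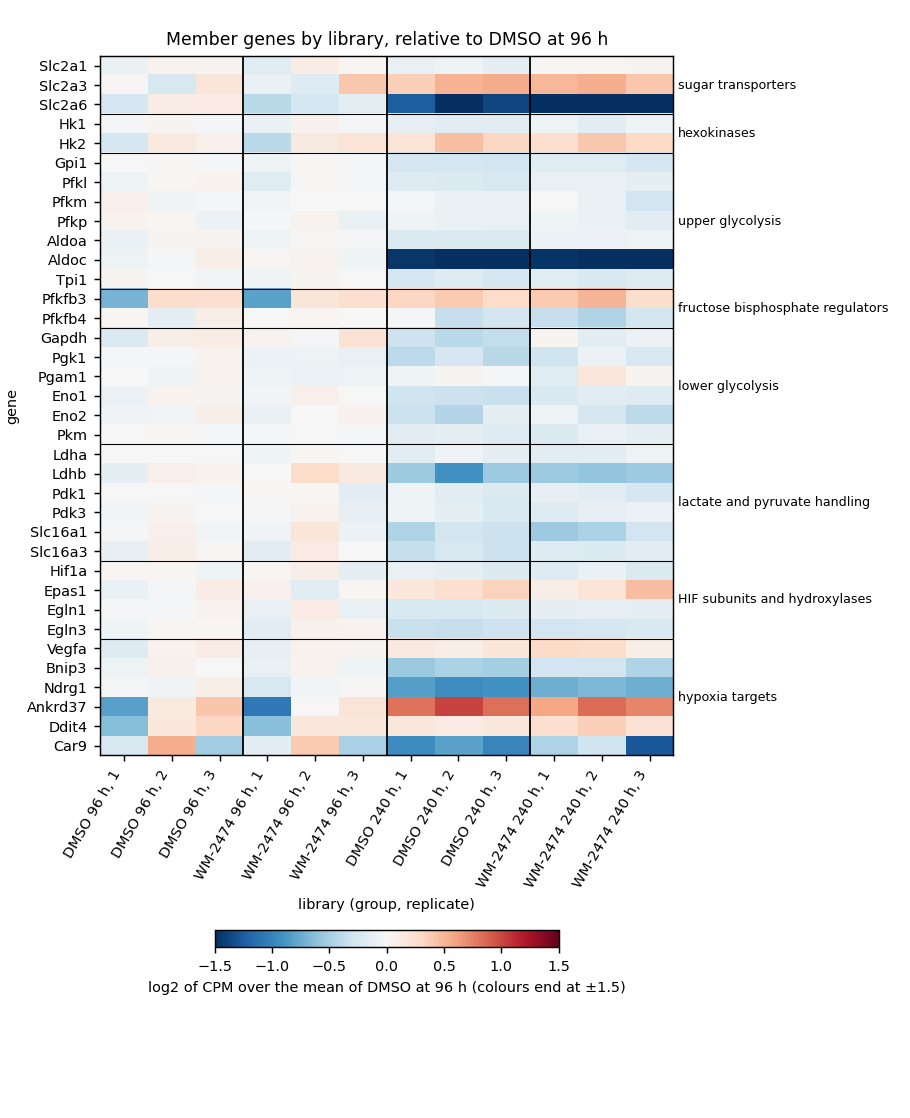
Each of the 12 libraries (columns) against the mean of DMSO at 96 h for the 36 genes (rows, by role), as log2 of the CPM ratio, blue for lower and red for higher. Aldoc and Slc2a6 are dark blue in all 6 libraries at 240 h, and Pfkfb3, Ddit4 and Ankrd37 are blue in replicate 1 of both treatments at 96 h.

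The 3 sugar transporter genes among those described here showed opposite shifts, and glucose entry itself was not measured. They are not the full set: Slc2a8, Slc2a10 and Slc2a13, counted with other carriers further on, stood above Slc2a3 in CPM with DMSO at 96 h. CPM is not scaled for gene length. Slc2a6, a GLUT family carrier, was at 15.4, 19.8 and 20.0 CPM in the DMSO libraries at 96 h and at 7.78, 6.52 and 7.09 CPM at 240 h. With WM-2474 it was at 13.9, 15.3 and 16.7 CPM and then at 5.85, 4.34 and 4.97 CPM. Every library at 240 h lay below every library at 96 h, a fall of 2.57-fold with DMSO (log2 -1.36 ± 0.13, edgeR adjusted p = 6.42e-09) and of 3.05-fold with WM-2474 (log2 -1.61 ± 0.15, edgeR adjusted p = 2.51e-09). Slc2a3, the high-affinity carrier best known from neurons, was at 8.61, 7.20 and 9.61 CPM and then at 10.9, 12.2 and 12.5 CPM with DMSO. It rose by 1.41-fold (log2 0.50 ± 0.14, edgeR adjusted p = 0.00653), and with WM-2474 by 1.35-fold (log2 0.44 ± 0.14, edgeR adjusted p = 0.0205), with no overlap between times in either. The DMSO rise no longer passed without replicate 3 of DMSO at 240 h (edgeR adjusted p = 0.0628). The WM-2474 rise no longer passed without replicate 1 or 2 at 96 h or replicate 2 at 240 h (edgeR adjusted p = 0.104, 0.111 and 0.0827). Slc2a1, the widespread basal carrier, held 90.6 ± 0.581% of the TPM of the 3 carriers at 96 h and 93.8 ± 0.299% at 240 h with DMSO. Its own changes were log2 -0.11 ± 0.06 and 0.04 ± 0.06 and did not pass.

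Hexokinases trap glucose as its phosphate. Hk1, the housekeeping form, fell slightly with DMSO (log2 -0.16 ± 0.05, edgeR adjusted p = 0.0145) and did not pass with WM-2474 (log2 -0.09 ± 0.05, edgeR adjusted p = 0.196). Hk2, the inducible form, was at 62.2, 82.3 and 78.7 CPM with DMSO at 96 h and at 85.5, 101.8 and 92.5 CPM at 240 h. Those groups did not overlap, but the change of log2 0.33 ± 0.17 did not pass (edgeR adjusted p = 0.160). With WM-2474 it was log2 0.33 (edgeR adjusted p = 0.182). Limma-voom called both (adjusted p = 0.0496 and 0.0460), and DESeq2 called neither (0.142 and 0.176). Hk2 made up 23.9 ± 2.41% of hexokinase TPM at 96 h and 30.6 ± 2.17% at 240 h with DMSO.

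In the upper enzymes 5 of 7 genes fell with DMSO and 3 of 7 with WM-2474. Aldoc, the brain-type aldolase, moved furthest of the 36. Its DMSO libraries held 25.95, 27.0 and 29.0 CPM at 96 h and 9.90, 6.92 and 8.90 CPM at 240 h, and its WM-2474 libraries held 27.6, 28.2 and 26.1 CPM and then 9.87, 6.77 and 9.24 CPM. The times were far apart in both treatments, 3.15-fold lower with DMSO (log2 -1.65 ± 0.11, edgeR adjusted p = 1.35e-11) and 3.23-fold lower with WM-2474 (log2 -1.69 ± 0.12, edgeR adjusted p = 1.80e-11). Its share of aldolase TPM went from 2.16 ± 0.0822% to 0.795 ± 0.141% with DMSO, beside the far more abundant Aldoa. Aldoa itself fell by 1.16-fold with DMSO (log2 -0.21 ± 0.04, edgeR adjusted p = 0.000568), and its WM-2474 change of log2 -0.06 ± 0.04 did not pass. Gpi1, which turns glucose phosphate into fructose phosphate, fell by log2 -0.26 ± 0.04 and -0.18 ± 0.04, and Tpi1 by -0.23 ± 0.04 and -0.19 ± 0.04. Among the phosphofructokinases, which catalyse the committed step, Pfkl fell with DMSO (log2 -0.21 ± 0.05) and not with WM-2474 (-0.07 ± 0.05), and Pfkm and Pfkp passed in neither.

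Pfkfb3 and Pfkfb4 set the level of fructose 2,6-bisphosphate, the activator of phosphofructokinase. Pfkfb4 fell with WM-2474 (log2 -0.37 ± 0.10, edgeR adjusted p = 0.00472) and did not pass with DMSO (log2 -0.23 ± 0.10, edgeR adjusted p = 0.0606). Pfkfb3 changed by log2 0.34 ± 0.31 and 0.47 ± 0.31, neither past the test, and its spread at 96 h is described further on.

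In the lower enzymes 5 of 6 genes fell with DMSO and 3 of 6 with WM-2474. Eno1 fell by log2 -0.32 ± 0.05 and -0.20 ± 0.05, Eno2, the neuron-type enolase, by -0.26 ± 0.08 and -0.22 ± 0.08, and Pkm by -0.17 ± 0.04 and -0.14 ± 0.04. Pgk1, the first ATP-making enzyme, was at 147, 146 and 156 CPM with DMSO at 96 h and at 114, 126 and 112 CPM at 240 h. That was a fall of 1.28-fold (log2 -0.36 ± 0.06, edgeR adjusted p = 1.78e-05), while the WM-2474 groups overlapped (log2 -0.11 ± 0.06, edgeR adjusted p = 0.145). Gapdh likewise fell with DMSO (log2 -0.36 ± 0.08, edgeR adjusted p = 0.00189) and did not pass with WM-2474 (log2 -0.16 ± 0.08, edgeR adjusted p = 0.135). Pgam1 did not pass in either (log2 -0.02 ± 0.06 and 0.09 ± 0.06). The sequence sharing given above applies to these changes too, most for Pgk1, Gapdh, Eno1, Pgam1 and Pkm. It also applies, to a lesser extent, to the changes of Ldhb, Gpi1, Bnip3, Ldha, Aldoa, Tpi1 and Pfkm.

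Lactate and pyruvate handling had 5 of 6 genes lower with each treatment, all but Pdk3. Ldhb, the heart-type lactate dehydrogenase, held 17.6, 20.5 and 20.2 CPM with DMSO at 96 h and 13.4, 10.3 and 13.3 CPM at 240 h. With WM-2474 it held 19.5, 23.5 and 21.3 CPM and then 13.3, 12.9 and 13.3 CPM. No libraries overlapped between times, and the falls were 1.54-fold (log2 -0.62 ± 0.11, edgeR adjusted p = 5.07e-05) and 1.62-fold (log2 -0.70 ± 0.11, edgeR adjusted p = 1.19e-05). Ldha, which makes up 98.6 ± 0.120% of the pair's TPM, fell only by log2 -0.12 ± 0.04 in each treatment. The lactate carriers Slc16a1 (log2 -0.34 ± 0.08 and -0.45 ± 0.08) and Slc16a3, the exporter of glycolytic cells (-0.30 ± 0.06 and -0.18 ± 0.06), both fell. Pdk1, which switches off pyruvate dehydrogenase, fell by -0.15 ± 0.05 in each, and its relative Pdk3 did not pass (-0.16 ± 0.06 and -0.10 ± 0.06).

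The HIF subunits moved in opposite directions. Hif1a fell by log2 -0.15 ± 0.05 with DMSO (edgeR adjusted p = 0.0296) and -0.16 ± 0.05 with WM-2474 (edgeR adjusted p = 0.0244). Epas1, which encodes HIF-2 alpha, was at 14.9, 15.6 and 17.2 CPM with DMSO at 96 h and at 17.8, 18.9 and 20.2 CPM at 240 h. Its times did not overlap, and it rose by 1.21-fold with each treatment (edgeR adjusted p = 0.0373 and 0.0477). Epas1 thereby went from 5.49 ± 0.569% to 7.12 ± 0.642% of the TPM of the 2 subunits with DMSO. The rise passed in 16 of 25 settings with DMSO and in 10 of 25 with WM-2474. With DMSO it was lost without replicate 1 or 2 at 96 h or 2 or 3 at 240 h (edgeR adjusted p = 0.0605 to 0.242). With WM-2474 it was lost without its replicates 2 or 3 at either time (0.0680 to 0.260), and without DMSO replicate 2 at 96 h or any DMSO library at 240 h (0.0511 to 0.0561). Both hydroxylases were lower: Egln3, itself a HIF target, fell by log2 -0.33 ± 0.06 and -0.24 ± 0.06, and Egln1, the main oxygen sensor, fell by -0.22 ± 0.05 with DMSO and did not pass with WM-2474 (-0.10 ± 0.05).

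**Figure D3:**
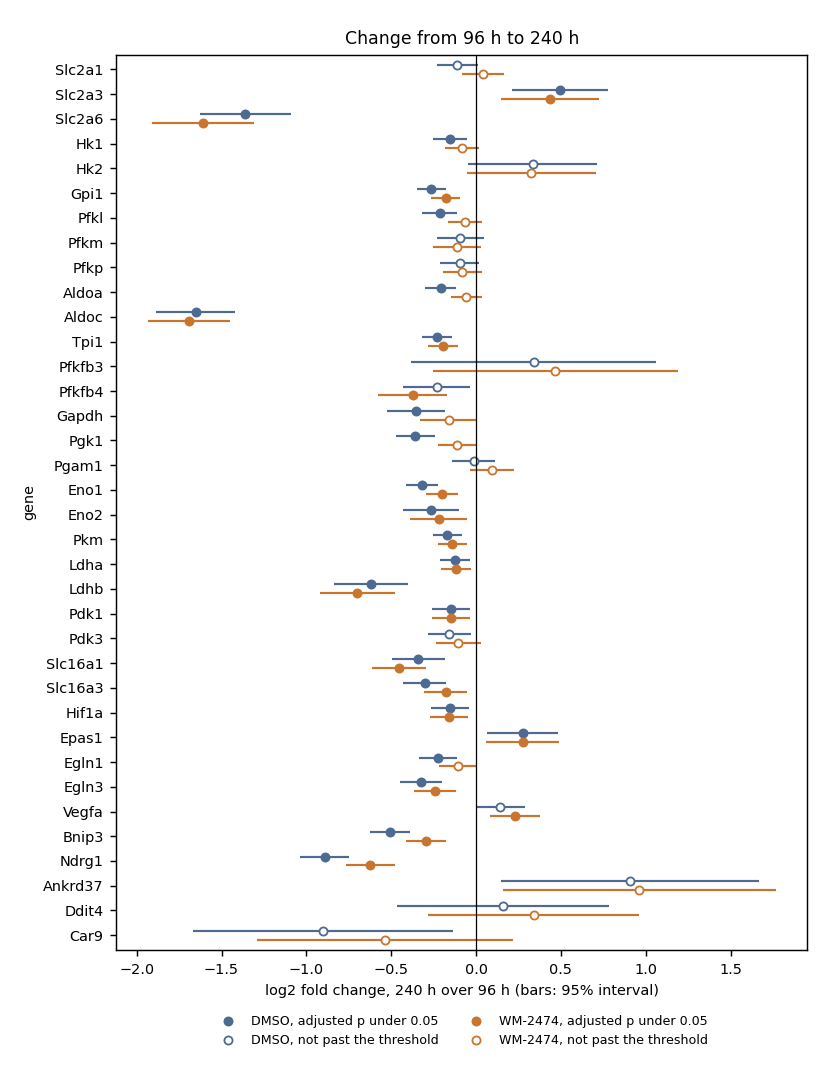
Log2 fold change from 96 h to 240 h with its 95% interval for the 36 genes, blue for DMSO and orange for WM-2474, filled where the adjusted p is under 0.05. Aldoc (-1.65 and -1.69) and Slc2a6 (-1.36 and -1.61) lie furthest left, and the wide bars of Pfkfb3, Ankrd37, Ddit4 and Car9 cover a large spread between libraries.

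The hypoxia targets split. Ndrg1, a stress-responsive gene of differentiating cells, was at 58.3, 57.3 and 63.1 CPM with DMSO at 96 h and at 33.7, 31.4 and 31.7 CPM at 240 h. With WM-2474 it was at 50.6, 58.1 and 60.2 CPM and then at 35.99, 37.4 and 35.8 CPM. The times were separate in both, 1.86-fold lower with DMSO (log2 -0.89 ± 0.07, edgeR adjusted p = 2.12e-10) and 1.54-fold lower with WM-2474 (log2 -0.62 ± 0.07, edgeR adjusted p = 1.22e-07). Bnip3, which drives removal of mitochondria, held 137, 151 and 145 CPM and then 98.3, 104 and 101 CPM with DMSO. It fell by 1.42-fold there (log2 -0.51 ± 0.06, edgeR adjusted p = 9.38e-08) and by 1.23-fold with WM-2474 (log2 -0.30 ± 0.06, edgeR adjusted p = 0.000208). Vegfa, the growth factor for blood vessels, rose with WM-2474 (log2 0.23 ± 0.07, edgeR adjusted p = 0.0169) and did not pass with DMSO (log2 0.14 ± 0.07, edgeR adjusted p = 0.123). The rise was lost without WM-2474 replicate 1 at 96 h (edgeR adjusted p = 0.0879) or replicates 1 or 2 at 240 h (0.0798 and 0.0745). Car9, a surface carbonic anhydrase that is a standard marker of hypoxia, was low and uneven, at 7.84, 13.4 and 6.43 CPM with DMSO at 96 h and 4.81, 5.29 and 4.65 CPM at 240 h. Its groups did not overlap with DMSO, and the change of log2 -0.90 ± 0.34 did not pass (edgeR adjusted p = 0.0677). DESeq2 (adjusted p = 0.0465) and limma-voom (0.00894) called this fall, as did edgeR on the libraries compared alone (0.0244) or with library totals (0.0337). With WM-2474 it was at 8.31, 12.1 and 6.57 CPM and then at 6.72, 7.54 and 3.81 CPM, which overlapped (log2 -0.53, edgeR adjusted p = 0.275), so replicate 2 was the highest at 96 h in both treatments.

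Replicate 1 stood apart at 96 h, in both treatments alike. Ankrd37, a small ankyrin protein induced by HIF, was at 5.54 CPM in DMSO replicate 1 and 4.65 CPM in WM-2474 replicate 1, against 10.8, 13.01, 9.74 and 11.2 CPM in the other 4 libraries. Pfkfb3 was at 55.3 and 51.4 CPM in the 2 libraries and at 108, 106, 101 and 106 CPM in the others. Ddit4, an inhibitor of mTOR signalling, was at 87.6 and 88.0 CPM, against 152, 169, 153 and 153 CPM. In all, both libraries of replicate 1 lay below the other 4 for 14 of the 36 genes and above them for none, and over all genes each pattern had a share of 13.8%. The median log2 difference of replicate 1 from the others was -0.10 for the 36 and 0.0017 for all genes. Among 40 other tested HIF targets, 15 were below and 3 above.

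The spread touches several time comparisons. At 240 h Ankrd37 was at 17.3, 19.7 and 17.3 CPM with DMSO and 14.6, 17.4 and 16.3 CPM with WM-2474, above every library at 96 h. The changes of log2 0.91 ± 0.33 and 0.96 ± 0.35 did not pass with all 12 libraries (edgeR adjusted p = 0.0659 and 0.0714). DESeq2 (adjusted p = 0.0496 and 0.0456) and limma-voom (0.00413 and 0.00410) called both. Without replicate 1 of both treatments at 96 h, a setting chosen after seeing these values, they were 0.58 and 0.63 and passed (edgeR adjusted p = 0.000520 and 0.000482). In that setting Pfkfb3 went to log2 0.07 with DMSO and 0.18 with WM-2474, where it passed (edgeR adjusted p = 0.0275). Hk2 went to 0.21 and 0.15 and passed with DMSO (edgeR adjusted p = 0.0148), and Ddit4 went to -0.090 and 0.11. The counts of genes that fell were then 22 and 16.

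**Figure D4:**
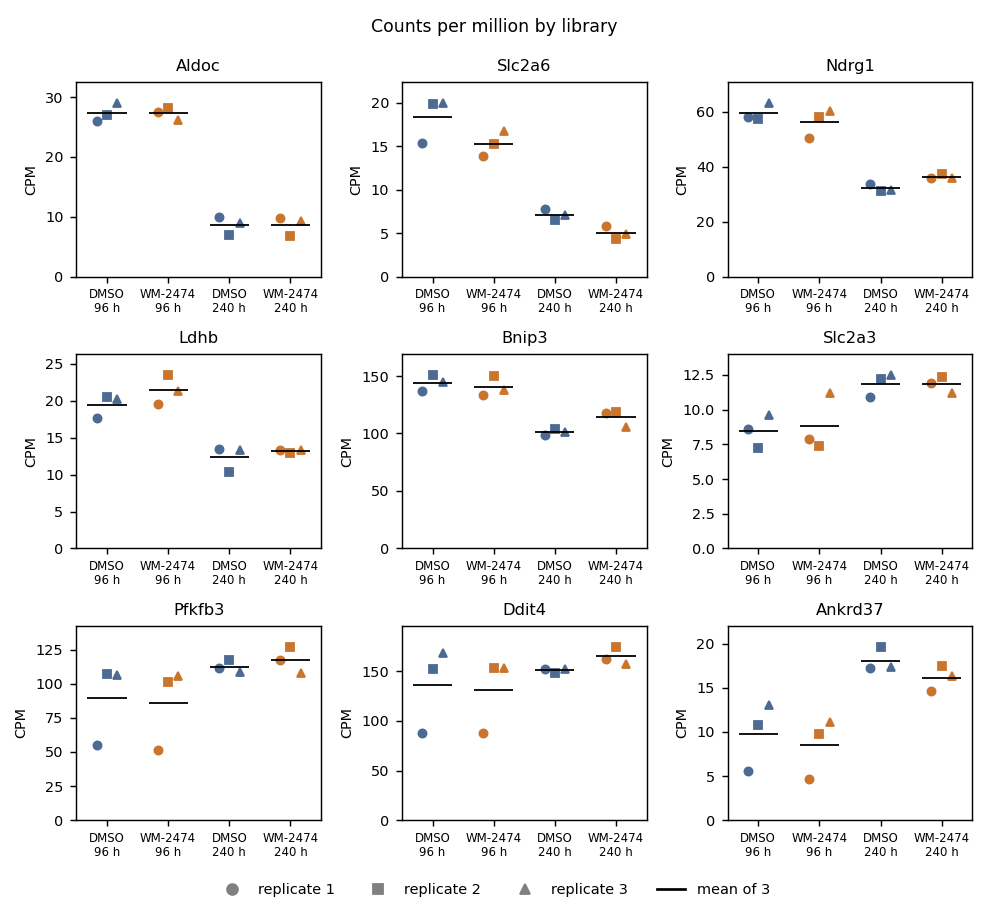
CPM of 9 of the genes in every library, with a mark for each replicate number, a line for the mean of 3, and axes from 0. Aldoc, Slc2a6, Ndrg1, Ldhb and Bnip3 are lower at 240 h in every library, and the circles of replicate 1 lie low at 96 h for Pfkfb3, Ddit4 and Ankrd37.

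WM-2474 against DMSO addresses whether the compound that the labels call inactive moved these genes. None of the 36 passed at 96 h, where 0 of 13499 genes passed (0.0%) and edgeR's smallest adjusted p among the 36 was 1.00. At an unadjusted p under 0.05 there was 1 of the 36 and 283 of all genes, and DESeq2 and limma-voom called none of the 36. The 3 with the smallest p on each side were Ldhb (log2 0.15 ± 0.10), Gapdh (0.09 ± 0.08) and Slc2a3 (0.04 ± 0.14), and Slc2a6 (-0.26 ± 0.11), Pgk1 (-0.09 ± 0.05) and Ndrg1 (-0.09 ± 0.07). For Pkm the 95% interval of the difference was -0.10 to 0.07, and for Ldha -0.10 to 0.08, so shifts of that size remain possible. Fold changes were above 0 for 8 of the 36 (50.1% of all genes), among them 0 of the 6 hypoxia targets. The treatments did not overlap for 1 gene, Pgk1, which was lower with WM-2474 (3.82% of all genes), and 0 of the 36 were higher without overlap (3.63%). The replicate numbers were taken to pair these libraries, and with the replicate block 0 of the 36 passed as well. Over all 13377 genes tested in the libraries compared, the block called 3 higher and 0 lower. There 846 had an unadjusted p under 0.05, against 284 without the block.

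At 240 h none of the 36 passed either (4 of 13499 genes did, 0.0296%, and 8 of the 36 and 1099 of all genes had an unadjusted p under 0.05). Limma-voom also called none. DESeq2 called none either, but it gave an adjusted p to only 3292 of the 13499 genes there. Any of the 36 without one could not be called. Fold changes were above 0 for 23 of the 36 (50.6% of all genes), among them all 6 lower enzymes and 5 of the 6 hypoxia targets, with a median of 0.04 against 0.0017 for all genes. Gapdh was at 56.3, 52.5 and 53.9 CPM with DMSO and at 71.8, 62.0 and 65.4 CPM with WM-2474. These groups did not overlap, and the difference of log2 0.29 ± 0.08 had an edgeR adjusted p = 0.411. It passed with no filter on low counts (edgeR adjusted p = 0.0267) and with the replicate block on the libraries compared (0.0111). Its adjusted p ran from 0.0111 to 1.00 over the settings tried. Slc2a6 lay the other way, every WM-2474 library below every DMSO library, by log2 -0.51 ± 0.17 (edgeR adjusted p = 0.454, 95% interval -0.85 to -0.17). Bnip3 (log2 0.18 ± 0.06) and Aldoa (0.12 ± 0.04) were the other genes with the smallest p above 0, and Slc16a1 (-0.10 ± 0.08) and Pfkfb4 (-0.14 ± 0.10) below.

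**Figure D5:**
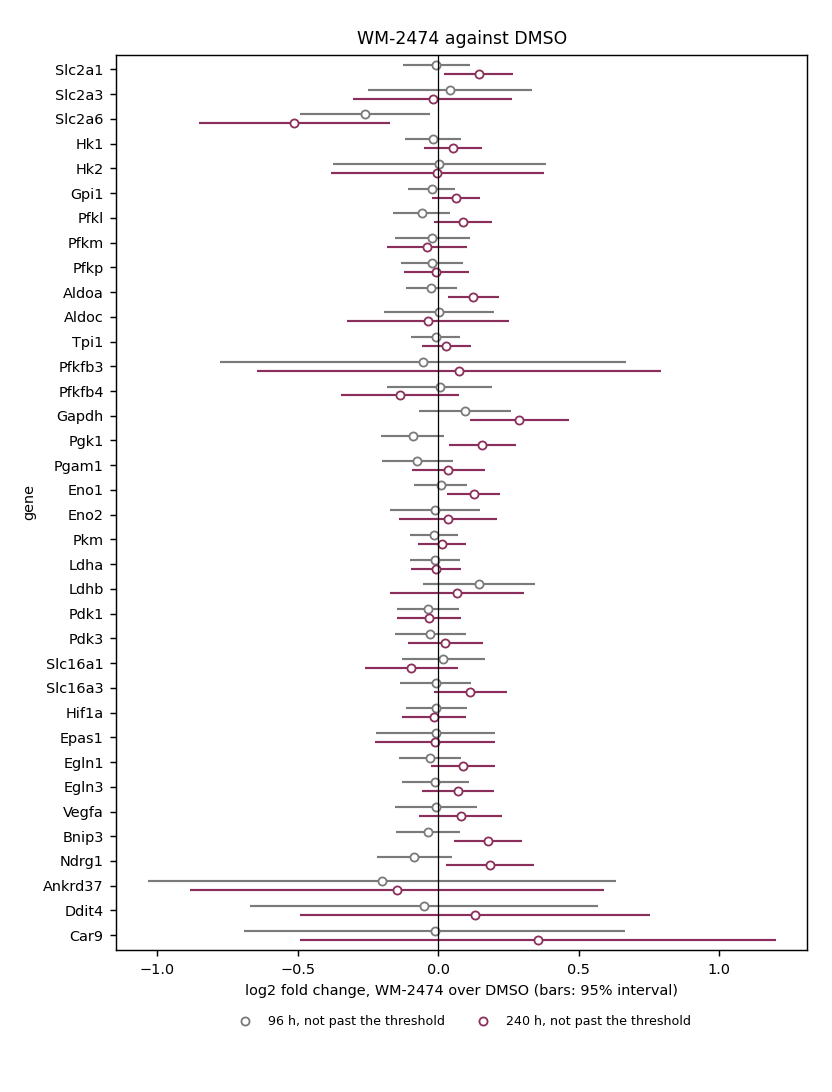
Log2 fold change of WM-2474 over DMSO with its 95% interval for the 36 genes, grey at 96 h and purple at 240 h, with open points since none passed the adjusted threshold. Slc2a6 lies furthest left at both times (-0.26 and -0.51), and Gapdh is at 0.29 at 240 h.

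At 240 h the treatments had no overlap for 13 of the 36 genes, 12 of them higher with WM-2474 (7.57% of all genes) and 1, Slc2a6, lower (6.72%). The 12 were Slc2a1, Gpi1, Pfkl, Aldoa, Gapdh, Eno1, Slc16a3, Bnip3, Egln1, Egln3, Ndrg1 and Ddit4. Averaged over both times, none of the 36 passed (0.0148% of all genes did, and 3 of the 36 had an unadjusted p under 0.05), with Slc2a6 at log2 -0.39 ± 0.10 (edgeR adjusted p = 0.677), Gapdh at 0.19 ± 0.06 and Eno1 at 0.07 ± 0.03. The average was above 0 for 22 of the 36 (51.0% of all genes).

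The time changes looked smaller with WM-2474 for several genes that fell with DMSO, and the difference itself was tested. It passed for none of the 36 (0.0% of all genes, and 5 of the 36 at an unadjusted p under 0.05). The smallest p were for Pgk1 (log2 0.25 ± 0.08), Ndrg1 (0.27 ± 0.10) and Bnip3 (0.21 ± 0.08), with an edgeR adjusted p = 0.977 for each, and Slc2a6 had -0.25 ± 0.20. The difference was above 0 for 26 of the 36 (50.7% of all genes), among them all 6 lower enzymes and all 6 hypoxia targets. A call with DMSO and none with WM-2474, as for Pgk1, Gapdh, Aldoa, Pfkl, Hk1 and Egln1, is therefore not shown to be a difference between treatments. With library totals these 6 passed with WM-2474 as well (edgeR adjusted p = 0.000668 to 0.00648).

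Several of the smaller time calls were lost when any 1 of several libraries was left out, with edgeR adjusted p given for the libraries left out. With DMSO, Hk1 was lost without replicate 2 at 96 h or 3 at 240 h (0.0681 and 0.0604), Eno2 without 3 at 96 h or 2 at 240 h (0.0656 and 0.0746), and Ldha without 1 or 2 at 96 h or 1 or 3 at 240 h (0.05003 to 0.124). Pdk1 with DMSO was lost without any library at 96 h or 2 or 3 at 240 h (0.0578 to 0.223), and Hif1a without 1 or 2 at 96 h or 2 or 3 at 240 h (0.0588 to 0.152). With WM-2474, Eno2 was lost without 2 or 3 at either time (0.0973 to 0.215), Ldha without 2 or 3 at 96 h or 1 or 2 at 240 h (0.0835 to 0.141), and Pdk1 without 1 or 2 at 96 h or 2 or 3 at 240 h (0.0893 to 0.181). Slc16a3 with WM-2474 was lost without 2 or 3 at 96 h or any library at 240 h (0.0647 to 0.189), and Hif1a without 1 or 2 at 96 h or 1 or 3 at 240 h (0.0592 to 0.160). The WM-2474 calls of Eno2, Ldha and Pdk1 were lost as well without DMSO replicates 1, 3 and 2 at 240 h, in that order (0.0520, 0.0542 and 0.0525). Other genes passed when a library was left out. With DMSO these were Car9 without replicate 3 at 96 h (0.0335) or WM-2474 replicate 2 at 96 h or 3 at 240 h (0.0369 and 0.0429), Pfkfb4 without 2 at 96 h or 1 at 240 h (0.0371 and 0.0221), Slc2a1 without 1 at 96 h (0.0475), Pdk3 without 1 at either time (0.0456 and 0.0339) or WM-2474 replicate 1 at 240 h (0.0486), Vegfa without 3 at 96 h (0.0435) and Hk2 without WM-2474 replicate 1 at 96 h (0.0107). Ankrd37 passed with DMSO without DMSO replicate 3 or WM-2474 replicate 1 at 96 h (0.0394 and 0.0151), and with WM-2474 without DMSO replicate 1 at 96 h (0.0149). With WM-2474 they were Pgk1 without 2 at 240 h (0.0297), Pgam1 without 1 at 240 h (0.00757) and Gapdh without DMSO replicate 1 at 96 h (0.0488).

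Neighbouring pathways give the setting of these changes, from lists of genes outside the 36, with tested genes that rose and fell given for DMSO and then WM-2474. The shares over all genes were 17.5% and 17.3%, then 15.9% and 14.8%, and counts in lists this small that lie near them are values only. Of 8 pentose phosphate genes 0 rose and 5 fell, then 1 and 6, led by Pgd (log2 -0.45 ± 0.04 and -0.49 ± 0.04) and Tkt (-0.39 ± 0.04 and -0.41 ± 0.04), which make NADPH and rearrange sugars. Of 12 genes of pyruvate dehydrogenase and its regulators 0 rose and 4 fell, then 0 and 3, led by the phosphatase Pdp2 (-0.95 ± 0.14 and -0.51 ± 0.14) and the kinase Pdk4 (-0.57 ± 0.16 and -0.69 ± 0.16). Of 40 other HIF targets 15 rose and 11 fell, then 11 and 6. Among them Adm, the vessel-relaxing peptide adrenomedullin, fell by log2 -1.48 ± 0.08 and -1.45 ± 0.08 and Nampt, an NAD enzyme, by -0.77 ± 0.06 and -0.63 ± 0.06. P4ha1, a collagen prolyl hydroxylase, rose by 0.50 ± 0.05 and 0.51 ± 0.05, and Ero1a, an oxidase of the endoplasmic reticulum, by 0.45 ± 0.06 and 0.41 ± 0.06.

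Of 11 other HIF regulators 1 rose and 4 fell with DMSO, then 1 and 2 with WM-2474, with Arnt2, a beta subunit, at log2 -1.13 ± 0.11 and -1.16 ± 0.11 and Cited2, a competitor of HIF for its coactivator, at -0.50 ± 0.05 and -0.44 ± 0.05. Bpgm, which makes 2,3-bisphosphoglycerate, was the gene that moved most in 10 other glycolytic genes, of which 2 rose and 1 fell, then 1 and 1. It was at 23.1, 22.0 and 23.5 CPM with DMSO at 96 h and at 44.4, 43.2 and 43.7 CPM at 240 h, with no overlap, a rise of log2 0.93 ± 0.07 and with WM-2474 of 0.82 ± 0.07. Of 11 other sugar and lactate carriers 2 rose and 1 fell in each, near or under the shares over all genes, and the one that fell was Emb (-0.60 ± 0.09 and -0.74 ± 0.09), a partner protein of the lactate carriers. In these lists 0 genes passed in WM-2474 against DMSO at 96 h or at 240 h.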

How the data were processed

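Per the labels, the kit for the libraries selected mRNA and kept strand. The authors deposited raw counts per gene, made with featureCounts on mm10 per the submitters' processing notes, with each gene's exon length as another column. Aligner, annotation, versions and multiple-mapping settings are not given in the sources used here. Of 27179 entries, 874 without an identifier (0.547 to 0.648% of counts) were left out. 3 counts, the limit for a count of 0, equal 0.115 to 0.410 CPM. The members and lists were chosen with earlier results of these data known.

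edgeR 4.0.16 in R 4.3.3 fitted all 12 libraries with 1 coefficient per group (filterByExpr, TMM, robust quasi-likelihood, two-sided). It was also run on simulated counts with independent libraries, the same spread for every gene and no shared replicate shift. That run therefore does not check the fit for the replicate structure seen here. An exact permutation of 3 against 3 cannot go below p = 0.1. TPM came from counts and exon length. Alternatives used DESeq2 1.42.0, limma 3.58.1, other scalings, filters, blocks and left-out libraries. Same-numbered libraries deviated together at 96 h (correlations 0.191 to 0.301), so the numbers were taken to pair the treatments there. For WM-2474 the 3 smallest p per direction and Slc2a6 are named, and for other lists the smallest p among genes that passed, or partners of members. Symbols and coordinates are from GRCm38.p6, promoters from RefSeq.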

Additional observations from a re-analysis of the deposited data

How the results depend on the processing

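The fit was repeated under 24 other settings. With DMSO over time, 5 genes passed in all 25 settings (Slc2a6, Aldoc, Ldhb, Bnip3, Ndrg1), and with WM-2474 also 5 (Slc2a6, Aldoc, Ldhb, Slc16a1, Ndrg1). The share of all genes that passed in every setting was not counted. The 22 genes lower with DMSO became 5 when tested against a fold of 1.2, and the 17 with WM-2474 became 5, while 0 rose in either. Over all 13499 genes that test left 719 higher and 821 lower with DMSO, and 699 and 732 with WM-2474. Library totals in place of TMM moved the median of all genes to -0.13 with DMSO and -0.14 with WM-2474, the split of all genes from 2364 higher and 2330 lower to 1190 and 4379 with DMSO and from 2144 and 2000 to 1098 and 4384 with WM-2474, the genes higher to 1 and 0, and those lower to 28 and 26. Limma-voom gave 4 and 5 higher. Leaving out each library in turn gave 0 to 4 higher and 18 to 23 lower with DMSO, and 0 to 4 higher and 12 to 18 lower with WM-2474. The 2 genes higher with DMSO became 0 when replicate 3 of DMSO at 240 h was left out, 1 without replicate 2 of DMSO at either time or its replicate 1 at 96 h, and 4 without its replicate 3 at 96 h or replicate 1 of WM-2474 at 96 h. The 3 higher with WM-2474 became 0 when its replicate 2 at 240 h was left out and 1 without its replicates 1 or 2 at 96 h, one at a time. With replicates 1 and 2 of DMSO at 240 h both left out, 1 library remained in that group. The log2 changes with DMSO were then -1.61 for Aldoc and 0.55 for Slc2a3. Gapdh at 240 h passed with no filter (edgeR adjusted p = 0.0267) and with the replicate block on the libraries compared (adjusted p = 0.0111), which gave 1 higher, and its adjusted p over the settings tried reached 1.00. With the replicate block, genes higher over time became 4 and 5 in all 12 libraries and 5 and 4 in the libraries compared. With all 12 libraries and the block, Car9 passed over time with each treatment (edgeR adjusted p = 0.000334 and 0.00555), as did Hk2 (0.00150 and 0.00138) and Ankrd37 (0.00924 and 0.00800). In the libraries compared with the block the adjusted p were 8.43e-05 and 0.00872 for Car9, 2.26e-05 and 0.0115 for Hk2, and 0.00469 and 0.000533 for Ankrd37, and Vegfa passed with DMSO (0.0261). Same-numbered libraries correlated more weakly at 240 h (0.0397 to 0.114) and over time (-0.00783 to 0.132) than at 96 h. Whether the numbers pair libraries at 240 h or over time is not settled. All 6 libraries still correlated best with their own number at 240 h and over time with DMSO, and 4 of 6 over time with WM-2474. At 240 h, in the libraries compared, the block raised the calls over all genes from 15 higher and 0 lower to 79 and 12. Signs turned for small changes. Over time with DMSO, leaving out a library gave Ddit4 -0.090 to 0.35 (-0.090 too with both replicates 1 left out) and Pgam1 -0.046 to 0.0078, with 0.0059 and 0.0078 above 0. Over time with WM-2474, library totals gave Pgam1 -0.040 and Slc2a1 -0.093, and leaving out a library gave Slc2a1 -0.048 to 0.10 (-0.049 with both replicates 1 left out). At 96 h, leaving out a library gave Gapdh -0.0086 to 0.15 and Slc2a3 -0.15 to 0.14, with -0.050 as the other value below 0. The causes were not tested. The fewest counts in a library were 33, for Car9.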

Other observations

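Other sugar-using pathways were counted in the same way between 96 h and 240 h, where 17.5% of all genes rose and 17.3% fell with DMSO, and 15.9% and 14.8% with WM-2474. Of 18 tested genes of glycogen metabolism 2 rose and 6 fell with DMSO, and 2 rose and 5 fell with WM-2474. The phosphoglucomutase Pgm1 fell by log2 -0.50 ± 0.05 and -0.36 ± 0.05, the phosphorylase kinase subunit Phka2 by -0.52 ± 0.08 and -0.54 ± 0.08, and the brain-type glycogen phosphorylase Pygb rose by 0.32 ± 0.04 and 0.33 ± 0.04. In the hexosamine pathway, which feeds protein glycosylation, 2 of 7 genes rose and 1 fell with each treatment. Gfpt2, its entry enzyme, fell by -0.51 ± 0.10 and -0.62 ± 0.10, and Oga, which removes the sugar from proteins, rose by 0.24 ± 0.05 and 0.14 ± 0.05.

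Of 4 tested genes of gluconeogenesis 1 rose and 1 fell with DMSO, and 1 rose and 0 fell with WM-2474, with the mitochondrial enzyme Pck2 higher by log2 0.18 ± 0.05 and 0.29 ± 0.05. Of 4 genes of glucose sensing 2 rose with DMSO and 1 with WM-2474, where Mlxip, which encodes MondoA, rose by 0.17 ± 0.06 in each. Of 8 growth regulators 1 rose and 1 fell with DMSO and 0 rose and 1 fell with WM-2474, with Mycn lower by log2 -0.97 ± 0.28 and -0.91 ± 0.33. Of 4 relatives of Ndrg1 and Ddit4, Ndrg4 rose by 0.27 ± 0.05 and 0.33 ± 0.05. All calls are by edgeR's quasi-likelihood test with Benjamini-Hochberg adjustment over all genes.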
